A study of Mus musculus with 8 samples.

Results

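A set of 10 genes of mitochondrial fusion, fission and cristae structure were followed in mouse hearts lacking Elmsan1 in cardiomyocytes. They were Mfn1, Mfn2, Opa1, Oma1, Yme1l1, Immt, Dnm1l, Mff, Mief1 and Fis1. These genes were chosen by symbol out of the 45706 genes in the table, with earlier results of these data known. All 10 passed the filter on low counts that left 15289 genes for testing. RNA was sequenced from hearts of 8-week-old male mice. The conditional knockout (cKO, n = 4) was Elmsan1 fl/fl with 1 copy of aMHC-Cre, a Cre recombinase driven by the αMHC promoter, which is active in cardiomyocytes, so other heart cells keep the gene. The floxed controls (n = 2) were Elmsan1 fl/fl without Cre, and the Cre controls (n = 2) carried aMHC-Cre without floxed alleles. The 3 groups differed in genotype alone, as far as the labels state.

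Mitochondria continually join and divide. The mitofusins fuse the outer membrane and OPA1 fuses the inner membrane, while the GTPase DRP1, encoded by Dnm1l, is recruited to the outer membrane by receptors and constricts the organelle. OPA1 and the MICOS complex, with mitofilin (Immt) at its core, also shape the cristae, the inner membrane folds that hold the respiratory chain.

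The 8 libraries held between 17509564 and 25833259 estimated counts each. CPM, the unit of all levels here, is the count over the library size after TMM scaling. Elmsan1 itself stood at 15.2, 15.5, 15.3 and 12.0 CPM in cKO replicates 1 to 4, at 27.6 and 25.6 CPM in the floxed hearts and at 28.6 and 25.3 CPM in the Cre hearts. It was lower in every cKO heart, with a log2 fold change of -0.89 (SE 0.11) and an edgeR adjusted p of 8.94e-05. Where the remaining Elmsan1 RNA came from was not tested, and in whole hearts fewer cells of a type and less RNA per cell cannot be told apart. The summed level of 10 cardiomyocyte markers, all detected, was 56500 to 63790 CPM in cKO, 63310 to 64500 CPM in floxed and 57580 to 62690 CPM in Cre hearts. That sum combines 4 markers called lower by edgeR (Ryr2 2.53-fold, Pln 2.09-fold, Ttn 1.55-fold and Actn2 1.22-fold), 4 called higher (Tnni3, Myl2, Myl3 and Mb) and 2 not called. Of the other cell types, 8 endothelial markers summed to 1212 to 1399 CPM in cKO, 932 to 959 in floxed and 922 to 1023 in Cre hearts. The sum of 8 macrophage markers was 230 to 293 CPM in cKO, 147 to 160 in floxed and 149 to 177 in Cre hearts. The sum of 8 fibroblast markers was 2159 to 2679 CPM in cKO, 1938 to 2022 in floxed and 1518 to 2025 in Cre hearts. Smooth muscle and pericyte markers, 7 in all, summed to 567 to 959 CPM in cKO, 650 to 657 in floxed and 707 to 738 in Cre hearts. Of 6 markers of other tissues, Myh4 was at 0 in every library, and the sum was 331 to 933 CPM in cKO, 299 to 428 in floxed and 337 to 511 in Cre hearts. The endothelial, macrophage and fibroblast sums of each cKO heart exceeded those of all control hearts, and their part in the results below was not tested. By edgeR 5 endothelial markers were called higher, 1 (Kdr) was called lower and 2 were not called. Of the macrophage markers 6 were called higher and 2 were not called. Of the fibroblast markers 2 were called higher and 6 were not called. With transcript length and GC content entered as an offset, 4 cardiomyocyte markers were called lower and 0 higher by edgeR. Of the endothelial, macrophage and fibroblast markers 6, 5 and 3 were then called higher, and 0 lower in each list. Among all genes tested 23.3% were then called lower and 22.5% higher. Gsn, the largest part of the fibroblast sum, had a mean of 1454 CPM in cKO and 1051 CPM in controls.

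In all, 8 members, namely Mfn1, Mfn2, Opa1, Oma1, Yme1l1, Immt, Dnm1l and Mff, fell in cKO hearts, Fis1 rose, and Mief1 did not pass the test. Across all genes tested, 26.5% were called lower and 25.6% higher at an adjusted p of 0.05 by edgeR. The median log2 fold change of the 10 members was -0.655, against 0.0438 over all genes tested. The 8 genes that fell had all 4 cKO values below all 4 control values, as did 25.9% of the genes tested. Fis1 had all cKO values above all control values, as did 23.4% of the genes tested.

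The 250 bases upstream of the RefSeq start (GRCm38.p6) are shown for Opa1, the member that fell furthest, for Oma1, whose protein cleaves OPA1, and for Fis1, the member that rose. The 3 motifs below were searched on both strands, and matches are in capitals: GCGCANGCG, the NRF1 core, CCGGAAG, an ETS core, and AAGGTCA, an ERR core.
Opa1: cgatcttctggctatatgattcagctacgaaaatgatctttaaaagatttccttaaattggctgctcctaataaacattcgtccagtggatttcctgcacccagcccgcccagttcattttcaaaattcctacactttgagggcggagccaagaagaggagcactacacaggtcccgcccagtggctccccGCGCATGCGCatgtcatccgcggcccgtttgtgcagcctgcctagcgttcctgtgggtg
Oma1: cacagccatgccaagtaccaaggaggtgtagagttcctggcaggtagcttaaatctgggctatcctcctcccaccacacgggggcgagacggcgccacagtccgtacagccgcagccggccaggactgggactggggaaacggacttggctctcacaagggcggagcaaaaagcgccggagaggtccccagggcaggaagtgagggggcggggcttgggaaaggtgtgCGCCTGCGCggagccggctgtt
Fis1: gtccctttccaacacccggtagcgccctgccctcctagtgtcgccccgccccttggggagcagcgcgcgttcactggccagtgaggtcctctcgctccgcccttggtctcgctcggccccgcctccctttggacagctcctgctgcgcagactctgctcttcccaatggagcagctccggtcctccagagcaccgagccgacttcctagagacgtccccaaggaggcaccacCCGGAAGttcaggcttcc
The Opa1 stretch is chr16:29579084-29579333, the Oma1 stretch chr4:103313596-103313845 and the Fis1 stretch chr5:136953025-136953274, all on the plus strand. The NRF1 letters were present in 2 of the 10 member promoters, Opa1 and Oma1, both shown here, and in 5.16% of all 32851 promoters. In Opa1 the motif reads on both strands, so its 2 matches overlap, and they start 59 and 58 bases upstream. In Oma1 the match starts 22 bases upstream of the RefSeq start. That start lies 34 bases downstream of the GENCODE start used for the gene positions below, so the match lies inside the gene as positioned there. The ETS letters were present in 5 members, Mfn1, Fis1, Mief1, Yme1l1 and Immt, and in 6.91% of all promoters, and in Fis1 they start 18 bases upstream. In Yme1l1 the ETS letters start 73 and 19 bases upstream of a RefSeq start 136 bases downstream of the GENCODE start, so both matches lie inside the gene as positioned below. The ERR letters were in 0 of 10 members and in 4.08% of all promoters. Each member was read at a single RefSeq start, the nearest to its GENCODE start, while the percentages cover all RefSeq promoters of all genes. They are thus not a background matched to the members. A match describes the letters of the window and is not a measured binding site.

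Both mitofusins, the outer membrane GTPases that tether and fuse mitochondria, were lower in cKO hearts. Mfn2 (chromosome 4, 147873599 to 147904704, minus strand) stood at 391, 334, 406 and 372 CPM in cKO replicates 1 to 4, at 866 and 856 CPM in floxed and at 817 and 780 CPM in Cre hearts. Every cKO heart lay far below every control. The means were 375.9 ± 31.05 CPM (SD, n = 4) in cKO and 830.0 ± 39.29 CPM (SD, n = 4) in controls. The log2 fold change was -1.14 (SE 0.09), 2.21-fold lower, with an edgeR adjusted p of 1.77e-05. Mfn1 (chromosome 3, 32529465 to 32579239, plus strand) stood at 187, 177, 213 and 196 CPM in cKO, at 312 and 307 CPM in floxed and at 284 and 340 CPM in Cre hearts. The groups again did not overlap, with a log2 fold change of -0.69 (SE 0.10), 1.61-fold lower, and an edgeR adjusted p of 0.000185.

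**Figure D1:**
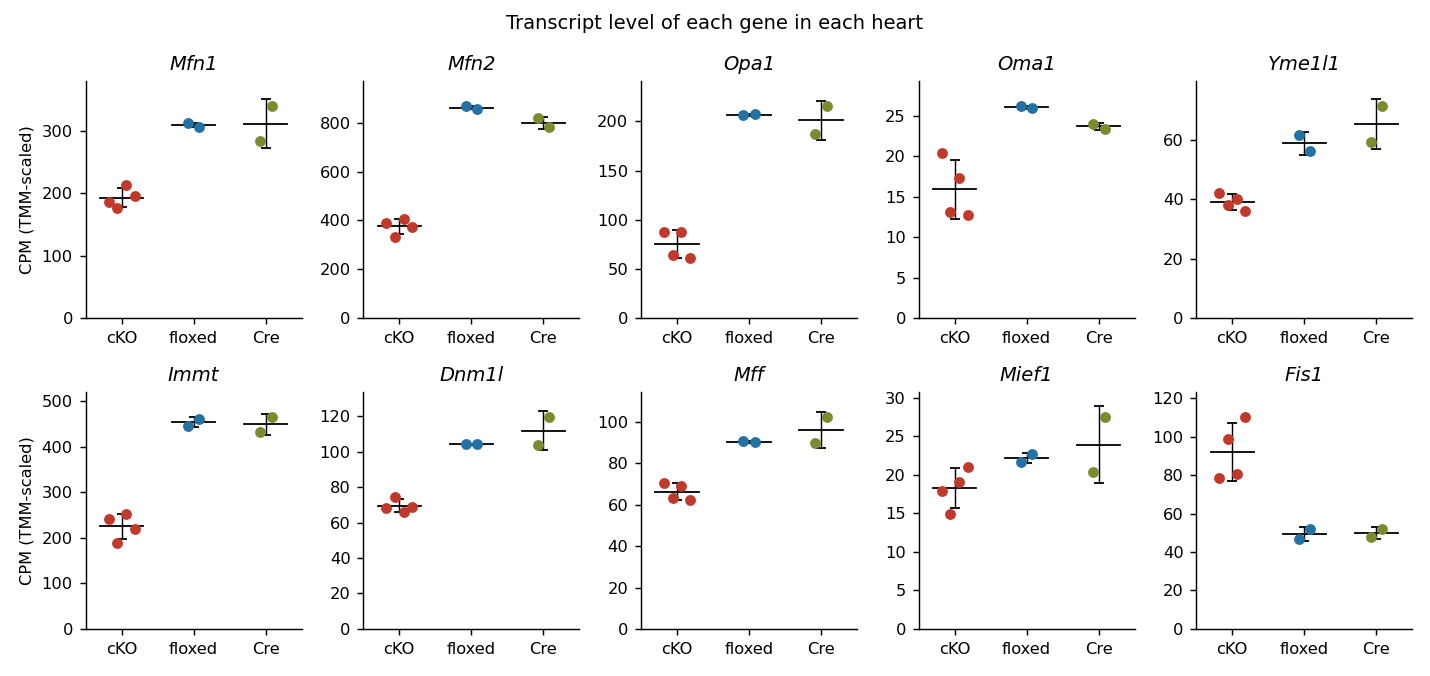
CPM (vertical axis) of each of the 10 genes in every heart by genotype, with points for hearts, lines for means and bars for SD (n = 4, 2 and 2). Opa1 lies between 61.5 and 87.9 CPM in cKO and between 187 and 215 CPM in controls, while Fis1 lies between 78.7 and 110.1 CPM in cKO and between 46.9 and 52.1 CPM in controls.

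Opa1, the dynamin-like GTPase of inner membrane fusion and cristae junctions, had the lowest fold change of the 10. The gene lies on chromosome 16, 29579334 to 29654884, plus strand. It stood at 87.9, 64.2, 87.9 and 61.5 CPM in cKO replicates 1 to 4, at 206.2 and 207.4 CPM in floxed and at 187 and 215 CPM in Cre hearts. The highest cKO value was under the lowest control value by a wide margin. The means were 75.4 ± 14.5 CPM (SD, n = 4) and 204.0 ± 11.9 CPM (SD, n = 4), a log2 fold change of -1.44 (SE 0.13), 2.71-fold lower, with an edgeR adjusted p of 2.59e-05.

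The inner membrane proteases that cleave OPA1 were lower too. Oma1 (chromosome 4, 103313812 to 103371868, plus strand) encodes the protease activated by membrane stress, and stood at 20.4, 13.1, 17.4 and 12.8 CPM in cKO, at 26.2 and 25.9 in floxed and at 24.03 and 23.4 in Cre hearts. Its cKO values were spread widely and all lay under the controls, with a log2 fold change of -0.65 (SE 0.14) and an edgeR adjusted p of 0.00337. Yme1l1 (chromosome 2, 23156369 to 23199260, plus strand) encodes the ATP-dependent protease of the intermembrane space side. It stood at 42.0, 38.0, 40.2 and 36.2 CPM in cKO, at 61.6 and 56.2 in floxed and at 59.3 and 71.2 in Cre hearts. The groups did not overlap, and the log2 fold change was -0.66 (SE 0.09) with an edgeR adjusted p of 0.00017.

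Immt (chromosome 6, 71831331 to 71877388, plus strand), which encodes the MICOS core subunit mitofilin, stood at 242, 189, 252 and 219 CPM in cKO replicates 1 to 4, at 446 and 462 in floxed and at 433 and 465 in Cre hearts. All cKO hearts lay below all controls, with a log2 fold change of -1.001 (SE 0.11), 2.00-fold lower, and an edgeR adjusted p of 4.21e-05.

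The fission genes did not move together. Dnm1l (chromosome 16, 16312230 to 16358959, minus strand) stood at 68.3, 74.7, 65.9 and 69.0 CPM in cKO, at 104.2 and 104.5 in floxed and at 104.1 and 119.6 in Cre hearts. The groups did not overlap, and the log2 fold change was -0.64 (SE 0.08) with an edgeR adjusted p of 0.000131. Mff (chromosome 1, 82724890 to 82752394, plus strand), a tail-anchored DRP1 receptor, stood at 70.8, 63.2, 69.2 and 62.5 CPM in cKO, at 90.7 and 90.2 in floxed and at 90.0 and 102.4 in Cre hearts. The fall was the smallest of the 8, with a log2 fold change of -0.49 (SE 0.08), 1.404-fold lower, and an edgeR adjusted p of 0.000691.

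Mief1 (chromosome 15, 80234018 to 80253371, plus strand), whose protein MiD51 also recruits DRP1, stood at 17.9, 14.9, 19.1 and 21.1 CPM in cKO, at 21.7 and 22.6 in floxed and at 20.4 and 27.5 in Cre hearts. Replicate 4 of cKO was above replicate 1 of Cre, so the groups overlapped. The log2 fold change was -0.33 (SE 0.13, 95% interval -0.62 to -0.05) with an edgeR adjusted p of 0.0506, just over the threshold. With single libraries left out the adjusted p ran from 0.0202 to 0.165: it was 0.0221 without cKO replicate 4, 0.0202 without Cre replicate 1 and over the threshold without any other.

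Fis1 (chromosome 5, 136953275 to 136966234, plus strand), an outer membrane adaptor tied to fission and to mitochondrial turnover, moved the other way. It stood at 78.7, 98.8, 80.7 and 110.1 CPM in cKO, at 46.9 and 51.9 in floxed and at 47.8 and 52.1 in Cre hearts. Every cKO heart was higher than every control. The means were 92.1 ± 15.0 CPM (SD, n = 4) and 49.7 ± 2.72 CPM (SD, n = 4), a log2 fold change of 0.89 (SE 0.12), 1.85-fold higher, with an edgeR adjusted p of 0.000129.

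Fis1 also has the shortest transcript of the 10, with a longest annotated form of 948 bases against 1915 to 6230 bases for the others. When transcript length and GC content were entered as an offset, its log2 fold change was 0.34, 1.26-fold higher, with an edgeR adjusted p of 0.013. Opa1, with the longest transcript, then had a log2 fold change of -1.03, 2.04-fold lower, and Mfn2 had -1.11, now the lowest of the 10. With the offset 8 members were called lower and 1 higher by edgeR, where 23.3% and 22.5% of all genes tested were, and the median of the members was then -0.413. Mfn1 then had a log2 fold change of -0.42, Dnm1l -0.41, Yme1l1 -0.38 and Mff -0.27, all still called, and Mief1 had -0.11 with an edgeR adjusted p of 0.539.

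**Figure D2:**
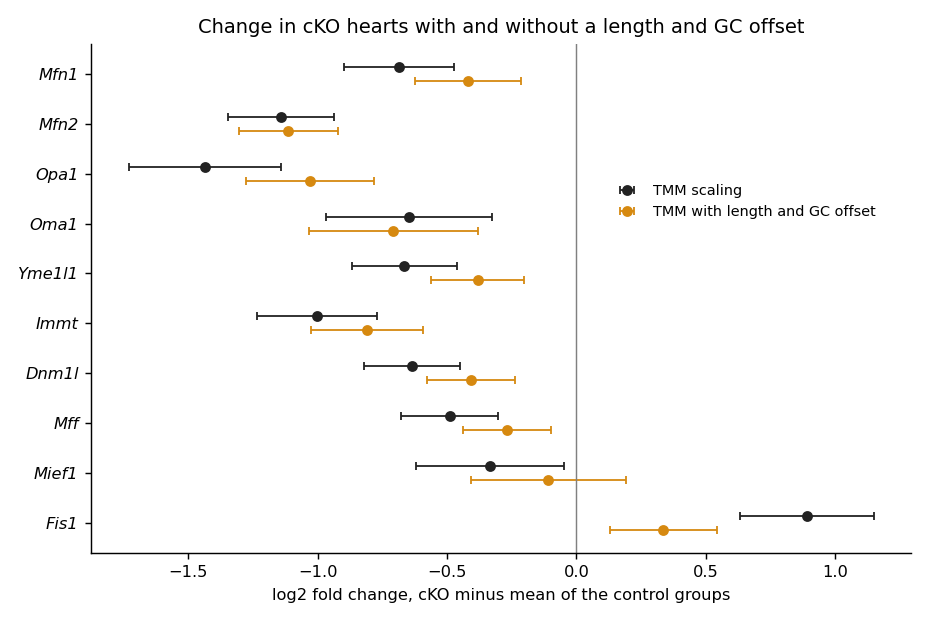
Log2 fold change of cKO against controls (horizontal axis) for the 10 genes, as fitted and with the length and GC offset, bars being 95% intervals. Fis1 moves from 0.89 to 0.34 and Opa1 from -1.44 to -1.03, and the other called genes stay below 0.

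Each control genotype was then taken alone, the cKO hearts being shared by both comparisons. Against floxed hearts 8 members were called lower and 1 higher by edgeR, where 23.1% and 19.8% of all genes tested were. Against Cre hearts 8 were lower and 1 higher, where 22.8% and 19.6% of all genes were. Opa1 had a log2 fold change of -1.46 against floxed and -1.42 against Cre hearts. Mfn2 had -1.20 and -1.09, Immt -1.01 and -0.99, and Fis1 0.90 and 0.88. Between Cre and floxed hearts 0 members were called by edgeR, DESeq2 or limma voom, and 0 had an unadjusted p under 0.05 by any of them. Of all genes, 0.0916% were lower and 0.00654% higher in Cre hearts by edgeR. Log2 fold changes of the members between Cre and floxed hearts ran from -0.14 to 0.15.

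Some calls against 1 control genotype were lost or gained under an alternative. Against floxed hearts Mff had an edgeR adjusted p of 0.0519 without floxed replicate 1, 0.0729 with library size alone and 0.0527 with the offset. Oma1 had 0.052 against floxed without floxed replicate 1 and 0.05 without floxed replicate 2. Against Cre hearts Oma1 had 0.102 without Cre replicate 1, 0.0702 without Cre replicate 2 and 0.0799 with library size alone, and Fis1 had 0.0503 with the offset. Against Cre hearts Mief1 had 0.0317 without cKO replicate 4 and 0.0353 without Cre replicate 1, but 0.48 without Cre replicate 2.

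**Figure D3:**
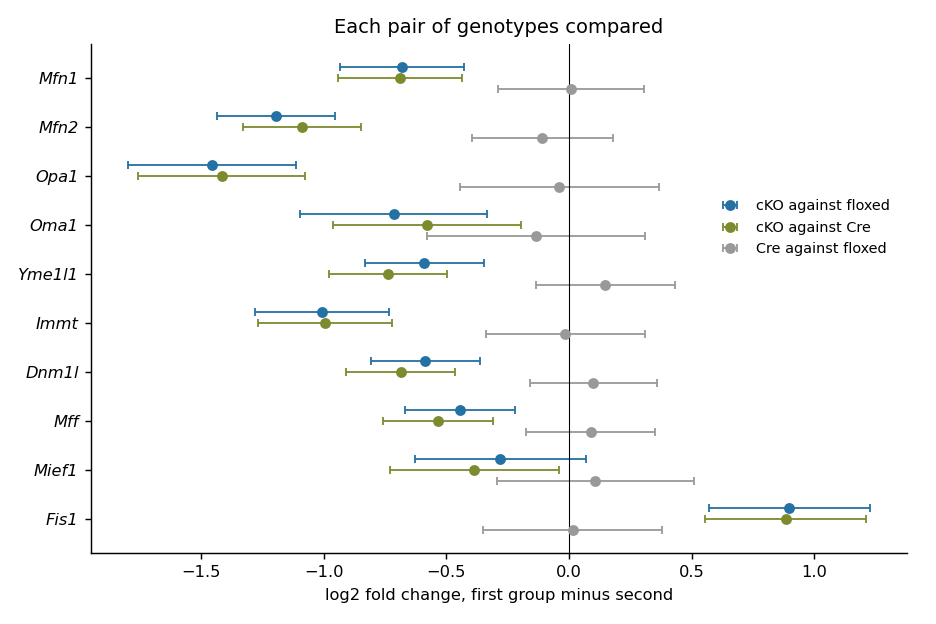
Log2 fold change (horizontal axis) of the 10 genes for the 3 pairs of genotypes, bars being 95% intervals. The values against each control genotype lie side by side, and those between the control genotypes lie between -0.14 and 0.15.

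Levels were compared between genes as CPM per kilobase of the longest annotated transcript. In controls Mfn2 was the highest at 191.2 ± 9.05 (SD, n = 4), followed by Immt at 129.9, Mfn1 at 68.1 and Fis1 at 52.4. Opa1 at 32.7 and Dnm1l at 27.2 overlapped, as did Yme1l1 at 13.2 and Oma1 at 13.0, and Mief1 was the lowest at 4.47. In cKO hearts Fis1 was the highest at 97.1 ± 15.9 (SD, n = 4) and overlapped Mfn2 at 86.6. This order rests on the change without the offset: the control mean multiplied by the change with the offset is 66.2 for Fis1 and 88.4 for Mfn2. Opa1 at 12.1 stood below Dnm1l at 17.5 and Mff at 16.9 CPM per kilobase.

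The cKO hearts differed among themselves. Replicate 4 had the lowest Opa1, Mff, Oma1 and Yme1l1 and the highest Fis1, while replicate 3 had the highest Mfn1, Mfn2, Opa1 and Immt. As a percentage of the control mean, Opa1 was at 43.1%, 31.5%, 43.1% and 30.2% in replicates 1 to 4, and Fis1 at 158%, 199%, 162% and 222%. The replicates with the lower Opa1 were thus those with the higher Fis1. Opa1 has the longest and Fis1 the shortest transcript of the members, and these values are without the length and GC offset. The part of transcript length in this pattern was not tested. The share of counts from mitochondrially encoded genes was 24.1 ± 3.47% (SD, n = 4) in cKO and 27.5 ± 1.63% (SD, n = 4) in controls, with an exact two-sided permutation p of 0.143, the smallest possible being 0.0286. Without cKO replicate 2, at 29.29%, the exact permutation p was 0.0286, the smallest that 35 splits can give, and without any other library it was 0.143 to 0.286.

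Ratios within a heart do not depend on library scaling, and these pairs were chosen after the values were seen. The ratio of Opa1 to Dnm1l was 0.86 to 1.33 in cKO and 1.8 to 1.98 in controls, and that of Fis1 to Mff was 1.11 to 1.76 in cKO and 0.509 to 0.576 in controls. Mfn2 to Mfn1 was 1.88 to 2.1 in cKO and 2.3 to 2.88 in controls. Only Oma1 to Yme1l1, of the 7 pairs taken, overlapped between cKO (0.346 to 0.484) and controls (0.328 to 0.462). Among single genes tested, 25.9% had all cKO values below all control values and 23.4% had them above. How often pairs of other genes separate was not tested. Ratios between genes do depend on length and GC content. The fitted change of Fis1 to Mff was 2.6-fold, or 1.52-fold with the offset. That of Opa1 to Dnm1l was 1.74-fold, or 1.54-fold, and that of Mfn2 to Mfn1 was 1.37-fold, or 1.62-fold. The log2 change of Opa1 to Mfn2 turned from -0.294 to 0.0847.

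**Figure D4:**
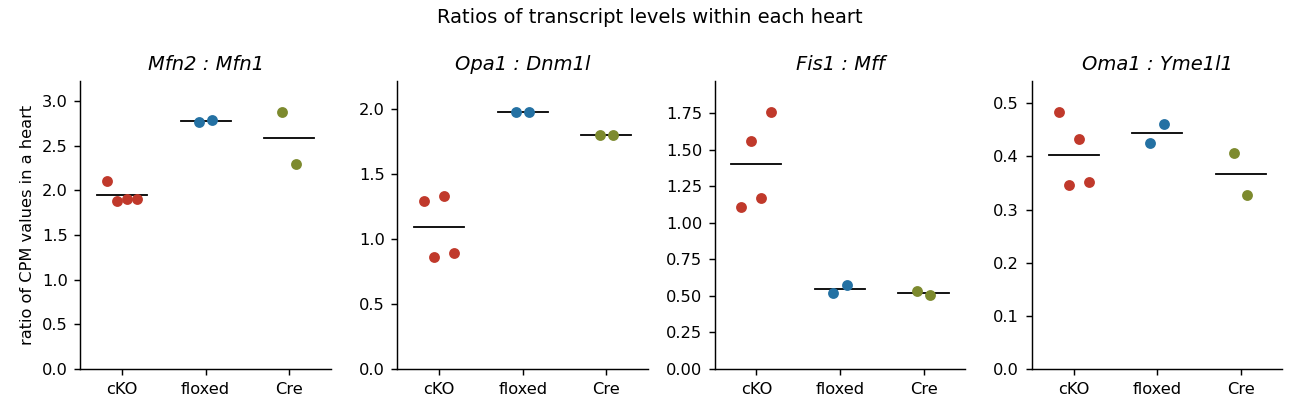
Ratio of CPM (vertical axis) for Mfn2 to Mfn1, Opa1 to Dnm1l, Fis1 to Mff and Oma1 to Yme1l1 in each heart by genotype, lines being means. Fis1 to Mff is 1.11 to 1.76 in cKO and 0.509 to 0.576 in controls, and Oma1 to Yme1l1 overlaps.

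Genes of the other lists are read against the 26.5% of all genes called lower and the 25.6% called higher. Of 14 further cristae genes 3 fell, 7 rose and 4 did not pass, with a median log2 fold change of 0.341, or 0.106 with the length and GC offset. Their share called lower was thus near or under that of all genes, and their share called higher was above that of all genes. The MICOS subunit genes Chchd6 and Minos1 rose, with log2 fold changes of 0.85 and 0.78, and Apoo and Apool fell, with -0.50 and -0.35. Mtx2, of the outer membrane sorting machinery, fell by 0.90 on the log2 scale, and Chchd3, a MICOS partner of Immt, had -0.08 and did not pass. With the length and GC offset Atp5k, an ATP synthase dimer subunit, went from 0.91 to 0.14, Mtx1 from 0.57 to -0.01 and Chchd10 from 0.51 to 0.01. None of these was then called. Atp5l, the other ATP synthase dimer subunit listed, went from 0.73 to 1.15 and Samm50 from 0.18 to 0.26, both called higher with the offset. The MICOS gene 2410015M20Rik went from 0.83 to 0.26 and stayed called. With the offset the list's number called higher was 5.

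Of 9 further genes of inner membrane quality control 3 fell, 3 rose and 3 did not pass, with a median of 0.0474, or -0.113 with the offset. Without the offset both shares were near those of all genes. Afg3l2, an m-AAA protease subunit, fell with a log2 fold change of -1.03 (SE 0.12), and Opa3 with -0.66. The prohibitin genes Phb and Phb2 rose, with 0.43 and 0.25. With the offset 4 genes of the list were called lower and 0 higher by edgeR, where 23.3% and 22.5% of all genes tested were. The number called was 3, not 6, without any 1 of cKO replicate 3, floxed replicate 1, floxed replicate 2 or Cre replicate 2, and without Cre replicate 1 the number called higher was 1.

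Of 19 further fission and fusion genes 18 were tested, 8 fell, 4 rose and 6 did not pass, with a median of -0.157, or -0.304 with the offset. The share called higher was near that of all genes, and the share called lower was above that of all genes. With the offset 10 were called lower and 4 higher by edgeR, where 23.3% and 22.5% of all genes tested were. Pgam5, a mitochondrial phosphatase that acts on DRP1, fell with a log2 fold change of -1.42 (SE 0.15), Mtfr1 with -0.95, Slc25a46, an outer membrane partner of OPA1, with -0.87 and the mitophagy receptor Fundc1 with -0.74. Mief2, the paralog of Mief1, rose with 0.59, and Inf2, an actin-nucleating formin, with 0.70. Mief1 itself had a negative value, -0.33.

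All 5 transport genes fell, with a median log2 fold change of -0.847, or -0.553 with the offset. With library size alone Rhot2 had an edgeR adjusted p of 0.0558 and 4 of the 5 were called. The transport genes include Trak1 with -1.005 and Trak2 with -0.85, the motor adaptors, and Rhot1 with -0.60 and Rhot2 with -0.42, the Miro GTPases. Of 8 cardiolipin genes 1 fell, 3 rose and 4 did not pass, with a median of 0.000874, and 2 fell with the offset or without cKO replicate 4. Hadha fell with -1.03, and Prelid1, a phosphatidic acid carrier subunit, rose with 1.05.

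**Figure D5:**
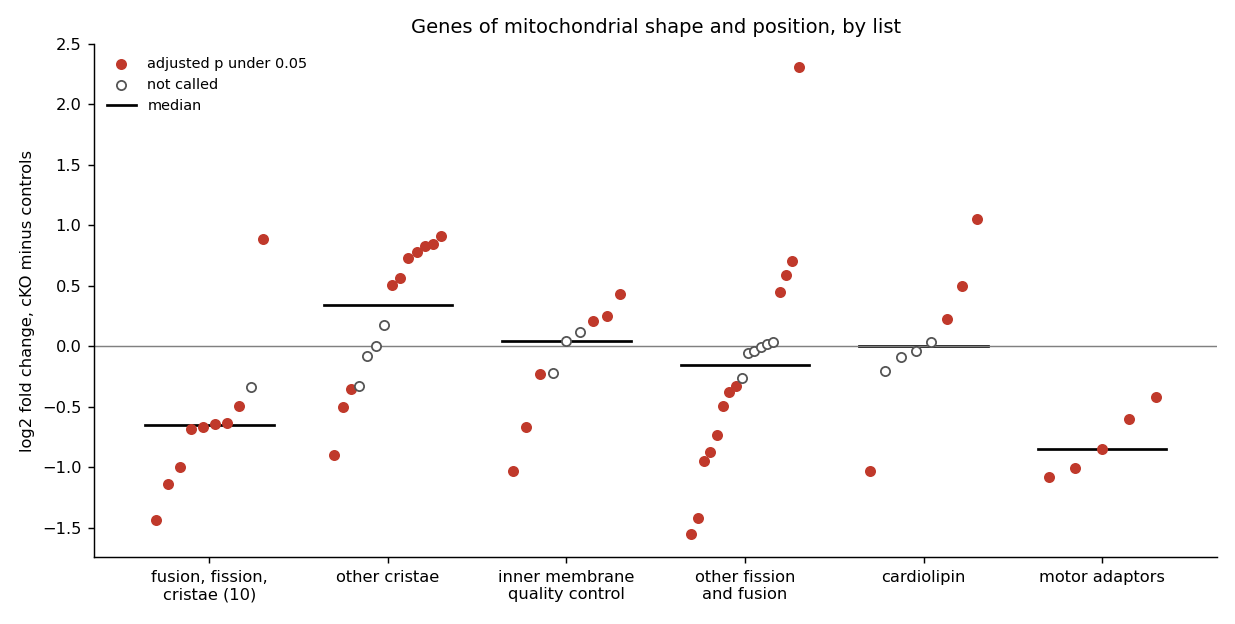
Log2 fold change of cKO against controls (vertical axis) for the genes of the 6 lists, filled points being called at an adjusted p of 0.05 by edgeR and lines being medians. The 10 members have a median of -0.655 and the 5 transport genes one of -0.847, while the 14 other cristae genes have one of 0.341.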

How the data were processed

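The authors made and deposited 1 table of estimated counts (expected counts, with decimals) for 45706 genes in 8 hearts. Per the submitters' processing notes, STAR 2.5.1b and DESeq2 were used with mm10 and GRCm38. Not given in the sources used here are the counting program, annotation, strand setting and mouse strain. Depth was 17509564 to 25833259 estimated counts per library. Between 71.95% and 76.34% of values above 0 were whole within 1e-06, so the values were taken as estimated and rounded, where the design had been written for counts.

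Symbols, positions (GRCm38) and transcript lengths came from GENCODE M21. Genes were filtered with filterByExpr, scaled by TMM and fitted over 3 groups with edgeR 4.0.16 (R 4.3.3) by its robust quasi-likelihood test with Benjamini-Hochberg adjustment over 15289 genes, at 0.05. In the main contrast, cKO was set against floxed and Cre averaged with equal weight. Cre against floxed also tests the difference between the comparisons with each. The offset for length and GC was fitted with mgcv 1.9.3. Alternatives included DESeq2 1.42.0 and limma 3.58.1. Where the labels do not name separate animals, p-values measure only the spread between these samples, which may be technical. The script was tested on simulated data.

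The members and lists were chosen with earlier results of these data known. All 10 members, Elmsan1 and genes of the 5 other lists could be named. Without strand information, reads from antisense overlaps cannot be told apart: exons on the opposite strand overlap 4.67% of Dnm1l, 2% of Mff and 1.63% of Immt. A gene on the same strand overlaps 2.63% of Mief1, which strand would not separate. The promoter motif search was not part of the planned tests. A longer spelling of the NRF1 letters was searched first and was replaced by the shorter one after its matches, also in Opa1 and Oma1, had been seen.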

Additional observations from a re-analysis of the deposited data

Results flagged for a closer look

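In groups of 4 hearts, a value was picked out when its gap to the nearest other, divided by the group's range, passed Dixon's critical value at the 95% level. Of 66 groups tested 3 were picked out, and chance picks about 1 in 20. Elmsan1 was at 12.0 CPM in cKO replicate 4, against 15.2 to 15.5 CPM in the other cKO hearts. Opa3 was at 49.9 CPM in cKO replicate 2, against 58.3 to 59.3 CPM in the other cKO hearts. The share of counts from mitochondrially encoded genes was 29.29% in cKO replicate 2, against 22.08% to 22.63% in the other cKO hearts.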

How the results depend on the processing

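For cKO against controls, 205 of 210 member values under the alternatives kept their direction and side of the threshold, and the other 5 were gains of Mief1. Members called lower numbered 8 to 9 when single libraries were left out, 6 to 8 against floxed and 7 to 9 against Cre. Correlations of the deviations of same-numbered hearts from their group means ran from -0.108 to 0.133. With 2 hearts in each control group those deviations mirror each other, so the correlations cannot show whether replicate numbers pair the samples. The replicate block used the numbers in the sample titles. The library names number the floxed hearts otherwise, so whether the block matches any true grouping of the hearts is not known. With the replicate block Mief1 had a log2 fold change of -0.48 and an edgeR adjusted p of 0.0265. With block and offset together the calls of Yme1l1 against floxed (adjusted p 0.0563), Mff against floxed (0.0994), Mff against Cre (0.0767), Fis1 against Cre (0.056) and, against controls, Rhot1 (0.0563) were lost.

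Members higher against Cre numbered 0 with the length and GC offset, and 0 with block and offset. Further cristae genes called numbered 6, of which 3 higher, with block and offset. Inner membrane genes called numbered 3 with the block, 2 with block and offset and 3 to 5 without single libraries; those higher numbered 1 without a filter, 1 with the block, 0 with the offset, 0 with both and 1 to 2 without single libraries. Cardiolipin genes lower numbered 2 with the block, 2 with the offset, 3 with both and 1 to 2 without single libraries. The mitochondrial share differed by -5.11 to -2.7 percentage points without single libraries. The cause of these shifts was not tested.

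Between Cre and floxed hearts, uncalled log2 values changed sign: Elmsan1 to -0.0218 without floxed replicate 2 and -0.0887 without Cre replicate 1 (range over single libraries -0.0887 to 0.13); Mfn1 to -0.0234 with the offset, -0.0265 with block and offset and -0.101 without Cre replicate 2 (-0.101 to 0.119). Opa1 went to 0.0122 with library size without mitochondrially encoded genes and 0.0442 without Cre replicate 1 (-0.118 to 0.0442). Fis1 went to -0.0654 without floxed replicate 1 and -0.0229 without Cre replicate 2 (-0.0654 to 0.102), and Mief1 to -0.0977 without Cre replicate 2 (-0.0977 to 0.296). Immt went to 0.0181 with upper-quartile scaling, 0.0191 with library size alone, 0.0394 without mitochondrially encoded genes, 0.0219 without floxed replicate 2 and 0.0231 without Cre replicate 1 (-0.0479 to 0.0231). For cKO against controls, scaling moved the median of all genes from 0.0438 to 0.155 with upper quartiles and 0.168 with library size alone. With 2 hearts per control genotype, small differences between them were not detectable.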
